A study of Glycine max with 54 samples.

Results

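The genes described here are LAR1, ANR1, ANS2 and UGT78K1, 4 soybean (Glycine max) genes at the end of the proanthocyanidin and anthocyanin pathway, measured in developing seeds on Affymetrix soybean microarrays. Each was taken from the probe sets whose only gene symbol in the array annotation was that name, and each had 1 such probe set, so 4 of the 37744 probe sets on the array are members. They are GmaAffx.34868.1.A1_at for LAR1 (gene ID 100786879), GmaAffx.43987.1.S1_at for ANR1 (gene ID 100805127), Gma.1163.1.S1_at for ANS2 (gene ID 547615) and Gma.1002.1.A1_at for UGT78K1 (gene ID 100794139). All 4 were among the 26482 probe sets that passed the filter on low values and were tested. LAR1, ANR1 and ANS2 were above the filter's log2 level of 5 on all 54 arrays, and UGT78K1 on 44 of them. Whether the probes also bind transcripts of close copies of these genes was not tested.

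Flavonoid synthesis runs from phenylalanine through chalcones and flavanones to dihydroflavonols, which dihydroflavonol reductase turns into leucoanthocyanidins. Leucoanthocyanidin reductase (LAR) makes catechin from these directly, whereas anthocyanidin synthase (ANS) oxidises them to anthocyanidins, which anthocyanidin reductase (ANR) turns into epicatechin. Catechin and epicatechin are the units of proanthocyanidins, the condensed tannins known from the seed coats of many legumes. UGT78K1 is known in soybean as a glucosyltransferase of the seed coat that puts glucose on anthocyanidins, the step that gives stable anthocyanins.

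The samples were whole seeds of 4 lines grown in a field in St Paul, Minnesota. The varieties Archer and Minsoy were grown in 2007 and 2008. A high yield line (6049-273) and a low yield line (6049-32), recombinant inbred lines from the cross of the varieties with similar maturity, were sampled in 2007 and are 1 line of each kind. Seeds were taken when 2 mm long, when 3.5 mm long and at a length of 5-6 mm, with 3 arrays for each of the 18 groups of line, length and year. In 2007 each line was a single row, so that the spread between its 3 samples is the spread within that row, and in 2008 the 3 replicates were blocks planted at different times, with seeds of a pair of rows pooled in each. A difference between lines in 2007 therefore cannot be told apart from a difference between rows. The labels name no treatment or transgene in any group.

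The values are log2 signals, and the parents of 2007, the parents of 2008 and the recombinant lines formed 3 sets of 18 arrays that differed in their lowest values. These were 1.96 on every array in each set of parents and reached -1.56 in the recombinant lines. Levels are therefore compared only within a set. The arrays carry no read depth, and their number, 3 in each group, limits the precision. A stage score and a line score, made from other probe sets without the 4 genes, place each array by seed stage (5-6 mm high, 2 mm low) and by line. An array of the shortest or longest seeds counted as out of place when its stage score was nearer to the median of the other of these lengths in its set, and any array when its line score was nearer to the other line. By this rule, which did not judge stage at 3.5 mm, 4 arrays went against their label. In Minsoy of 2008, the 2 mm array of replicate 1 had a stage score of 1.61, inside the range of the 5-6 mm arrays, and the 5-6 mm array of replicate 1 had a score of -1.02, nearer to 2 mm seeds. In the low yield line, the 2 mm array of replicate 1 had a stage score of 2.86, like 5-6 mm seeds, and a line score of 1.05 on a scale where the low yield line lies near 0 and the high yield line near 1. In the high yield line, the 5-6 mm array of replicate 1 had a line score of 0.17. Replicates 1 and 3 of the low yield line at 5-6 mm had line scores of 0.32 and 0.38, and did not count as out of place. Among the 3.5 mm arrays, replicate 3 of Minsoy in 2007 had a stage score of 2.21, inside the range of the 5-6 mm arrays of its set (1.94 to 2.44), and a mean over the embryo markers of 12.7 against 4.62 and 5.81 in its group. It was kept, and without it the LAR1 difference between Archer and Minsoy at that length was -2.57. Replicate 2 of the high yield line at 3.5 mm had a stage score of -2.42, against -1.19 and 1.72 in its group. This lies between the scores of 2 mm replicates 2 and 3 of the low yield line, -2.34 and -2.66. That 3.5 mm array was kept too, and the LAR1 difference without it is given below. The main results that rest on the 4 arrays are given with and without them, an omission chosen after seeing the data. For 1 array of the low yield line at 3.5 mm, replicate 3, the description names the other line while title and genotype do not, and its line score was -0.02. SCB1, a BURP domain protein of the seed coat, lay between 14.90 and 16.57 on all 54 arrays. The difference between the 3' and 5' actin control probe sets, a sign of RNA quality, set the recombinant lines apart. It was -0.81 to -0.06 on the arrays of the parents and 1.22 to 3.36 on those of the recombinant lines. Replicates 1 and 3 of both recombinant lines at 3.5 mm were highest, at 2.96 to 3.36. The part of this difference in the results was not tested.

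LAR1 was the member that differed between the lines. Its transcript was lower in Archer than in Minsoy at every seed length in both years, and lower in the high yield line than in the low yield line at 2 mm and 3.5 mm. ANR1, ANS2 and UGT78K1, which act on the same pool of precursors or on its products, did not pass the test between Archer and Minsoy or between the recombinant lines when the 3 lengths were averaged. With seed length, LAR1 and UGT78K1 rose while ANR1 and ANS2 fell. In whole seeds, fewer cells of a type and less RNA per cell cannot be told apart.

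In the parents of 2007, LAR1, the enzyme of the catechin branch, had log2 values of 8.28, 7.98 and 8.08 in Archer at 2 mm, against 10.91, 10.83 and 10.62 in Minsoy. The values at 3.5 mm were 9.33, 9.57 and 9.37 in Archer, against 11.76, 12.23 and 11.98 in Minsoy. The values at 5-6 mm were 9.93, 9.71 and 10.02 in Archer, against 12.11, 12.61 and 11.26 in Minsoy. Every Archer array lay below every Minsoy array, also across lengths, since the highest Archer value at 5-6 mm was below the lowest Minsoy value at 2 mm. The order of the group means followed line first and length second, from Archer at 2 mm up to Minsoy at 5-6 mm. Only the last step, between Minsoy at 3.5 mm and at 5-6 mm, joined groups with overlapping values, with means of 11.99 and 11.99.

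In the parents of 2008, LAR1 had log2 values of 9.57, 8.50 and 8.84 in Archer at 2 mm, against 12.94, 11.38 and 11.38 in Minsoy. The 3.5 mm seeds had 9.56, 9.14 and 9.05 in Archer, against 12.39, 12.10 and 12.24 in Minsoy. The 5-6 mm seeds had 10.10, 9.84 and 9.45 in Archer, against 11.87, 12.88 and 13.25 in Minsoy. The lines again did not overlap, and the lengths did within each line. The highest Minsoy value at 2 mm, 12.94, and the lowest at 5-6 mm, 11.87, came from the 2 arrays whose stage scores went against their labels.

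Averaged over lengths, LAR1 was at 9.14 ± 0.81 in Archer and 11.59 ± 0.71 in Minsoy in 2007 (SD over lengths and replicates, n = 9 arrays each). In 2008 it was at 9.34 ± 0.50 in Archer and 12.27 ± 0.67 in Minsoy (n = 9 each). The difference over both years was -2.69 on the log2 scale (SE 0.20, limma adjusted p = 2.6e-13), a level 6.45-fold lower in Archer. In this comparison 9.93% of all tested probe sets passed the adjusted threshold of 0.05, and 4.92% of them in the direction of LAR1. LAR1 held rank 60 by size and rank 34 by p among the 26482. The difference was -2.45 in 2007 (adjusted p = 3.4e-08), where 9.09% of probe sets passed, and -2.93 in 2008 (adjusted p = 6.4e-10), where 2.96% did. Lines without overlap over all lengths were seen for 0.974% of probe sets in 2007, for 1.15% in 2008, and for 0.329% in both years in the same direction, LAR1 among them.

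**Figure D1:**
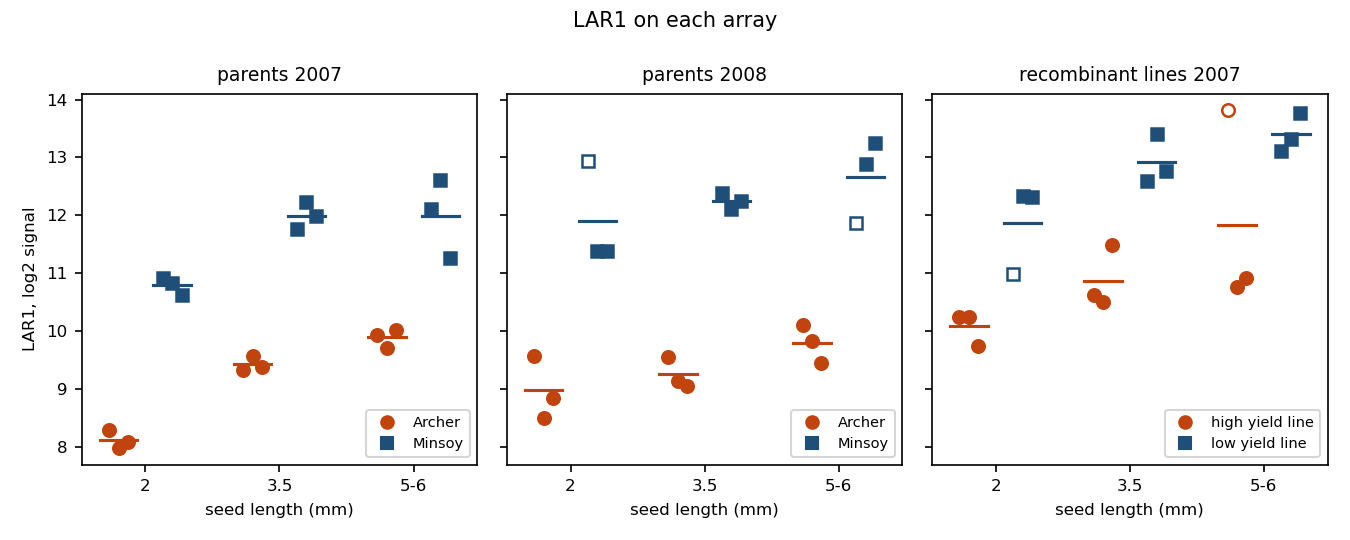
LAR1 log2 signal (y axis) on each of the 54 arrays by seed length in mm (x axis), in the 3 sets; circles are Archer or the high yield line, squares Minsoy or the low yield line, bars are group means of 3 arrays, and open symbols are the 4 arrays whose scores went against their label. Archer lies between 7.98 and 10.10 and Minsoy between 10.62 and 13.25; in the recombinant lines the open circle at 13.81 and the open square at 10.98 are the values of the 2 out-of-place arrays.

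The difference was present at each length taken alone. In 2007 Archer minus Minsoy was -2.67 at 2 mm, -2.56 at 3.5 mm and -2.10 at 5-6 mm, with adjusted p of 0.000528, 0.00131 and 0.00777 in limma's test. Of all probe sets, 2.08%, 1.47% and 6.91% passed at these lengths. In 2008 it was -2.93, -2.995 and -2.87, with adjusted p of 0.00024, 0.000245 and 0.000433, while 0.717%, 0.589% and 0.914% of probe sets passed. Without the 4 arrays the 2008 difference was -2.41 at 2 mm and -3.27 at 5-6 mm, both called, where 0.653% and 1.25% of probe sets passed. The value at 5-6 mm in 2007 leaned on the Minsoy array of replicate 2, without which it was -1.80 and missed the threshold (adjusted p = 0.064). The years differed by 0.49 (SE 0.40, adjusted p = 0.80), a test that 1.47% of probe sets passed, so a difference between the years in LAR1 was not shown.

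Markers of seed coat and embryo were read beside this difference. None of the 3 seed coat markers passed limma's test between Archer and Minsoy. They were taken as listed, and whether their transcripts follow the amount of seed coat was not tested. HPS, a hydrophobic protein of the seed surface, was at -2.62 (adjusted p = 0.068), a size close to that of LAR1, while Ep, the seed coat peroxidase, was at 1.18 (adjusted p = 0.22) and SCB1 at 0.16 (adjusted p = 0.16). Their summed signal, which SCB1 dominates, ranged from 16.29 to 16.52 in Archer and from 16.10 to 16.44 in Minsoy in 2007 on the log2 scale. In 2008 it ranged from 16.13 to 16.57 in Archer and from 15.87 to 16.54 in Minsoy. Of 13 markers of embryo storage and maturation, 0 were higher and 1 was lower in Archer, with a median difference of -1.72 against 0.01 over all probe sets. The summed embryo signal ranged from 6.46 to 18.4 in Archer and from 9.56 to 19.2 in Minsoy in 2007, and from 12.3 to 18.3 in Archer and from 11.8 to 18.8 in Minsoy in 2008. Of 3 markers of green tissue, 0 passed. The stage scores in 2007 were lower in Archer at 2 mm, at -4.01 to -3.17 against -2.83 to -1.81 in Minsoy, and at 3.5 mm they overlapped, at -0.72 to 1.21 in Archer and 0.94 to 2.21 in Minsoy. With the stage score in the model the LAR1 difference was called, as it was under all 16 alternatives, between -2.93 and -2.45. The part of seed coat and embryo content in it was not tested.

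In the recombinant lines LAR1 had log2 values of 10.24, 10.25 and 9.75 in the high yield line at 2 mm, against 10.98, 12.33 and 12.31 in the low yield line. At 3.5 mm it had 10.62, 10.50 and 11.48 in the high yield line, against 12.59, 13.41 and 12.76 in the low yield line. At 5-6 mm it had 13.81, 10.76 and 10.92 in the high yield line, against 13.12, 13.33 and 13.77 in the low yield line. The lines did not overlap at 2 mm or 3.5 mm. At 5-6 mm they did, through the value of 13.81, the highest of the 18 arrays, which came from the array of the high yield line with a line score of 0.17. The lowest value of the low yield line, 10.98, came from the 2 mm array with a line score of 1.05.

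With all arrays, LAR1 averaged 10.93 ± 1.19 in the high yield line and 12.73 ± 0.83 in the low yield line (SD, n = 9 each). The difference was -1.81 (SE 0.28, limma adjusted p = 2.3e-05), 3.50-fold lower in the high yield line, in a comparison that 5.37% of probe sets passed, 2.05% of them in this direction. Without the 4 arrays the 8 arrays of the high yield line ranged from 9.75 to 11.48 and the 8 of the low yield line from 12.31 to 13.77. The difference was then -2.28 (SE 0.17, limma adjusted p = 1.55e-12), 4.87-fold lower in the high yield line, with 6.91% of probe sets called. The lines did not overlap, as for 0.865% of probe sets without these arrays. Of the 4 arrays, 2 were picked by a line score built from probe sets that differ between these lines. Leaving them out favours a larger difference and less overlap. With all arrays, 0.00378% of probe sets, a single one, had lines without overlap in this set. The seed coat markers gave -3.74 for HPS (adjusted p = 0.099), 2.63 for Ep (adjusted p = 0.063) and 0.03 for SCB1 (adjusted p = 0.95). Their summed signal ranged from 15.96 to 16.44 in the high yield line and from 15.95 to 16.42 in the low yield line. Of the 13 embryo markers 0 passed, with a median of 0.54 and summed signals from 11.5 to 18.2 in the high yield line and from 10.01 to 18.3 in the low yield line, and 1 of the 3 green tissue markers was higher. Their part in the LAR1 difference was not tested.

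At single lengths the high minus low difference in LAR1 was -1.79 at 2 mm (limma adjusted p = 0.016), -2.05 at 3.5 mm (adjusted p = 0.014) and -1.57 at 5-6 mm (adjusted p = 0.55). At 2 mm 7.87% and at 3.5 mm 1.66% of probe sets passed. The high yield line had lower stage scores at 2 mm, at -4.53 to -3.89 against -2.66, -2.34 and 2.86 in the low yield line. At 3.5 mm they overlapped, at -2.42 to 1.72 in the high and -0.57 to 1.56 in the low yield line. At 5-6 mm limma called 0 (0%), while 1115 had an unadjusted p under 0.05. Without the array of the high yield line at 13.81 alone, the 5-6 mm difference was -2.56 (adjusted p = 0.000271). Without the array of the low yield line at 10.98 alone, the 2 mm difference was -2.24 and was called. Without all 4 arrays both had these sizes and were called, where 1.21% of probe sets passed at 5-6 mm and 4.99% at 2 mm. The arrays at 13.81 and 10.98 had been picked by line score, so leaving them out favours larger differences. With all arrays, the calls at 2 mm and 3.5 mm were lost when only the arrays of this set entered the fit, with adjusted p of 0.20 and 0.41. At 2 mm the call was also lost with the stage score in the model (-1.52, adjusted p = 0.11), and without replicate 2 or 3 of the low yield line or replicate 3 of the high yield line, with differences of -1.56, -1.57 and -1.63. At 3.5 mm it was lost without replicate 1 or 2 of the high yield line, with differences of -1.93 and -1.87. The difference averaged over lengths was called in every one of the 14 alternatives and in all 54 fits that left out 1 array.

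**Figure D2:**
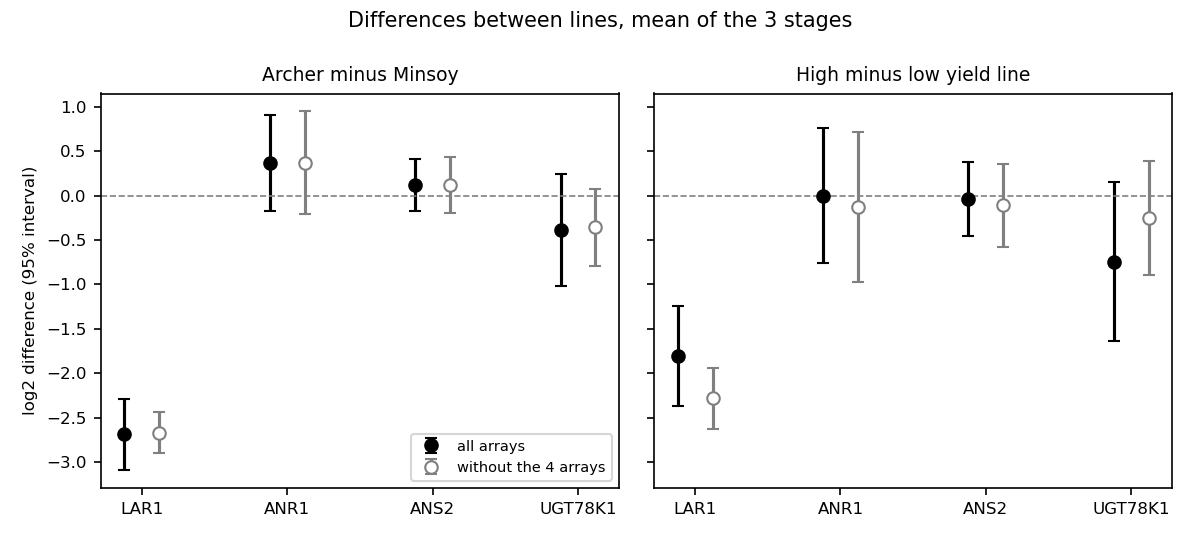
Log2 differences between lines (y axis, with 95% intervals) averaged over the 3 seed lengths for each gene (x axis), for Archer minus Minsoy (18 arrays each) and for the high minus the low yield line (9 arrays each); filled points use all arrays and open points leave out the 4 arrays. LAR1 lies at -2.69 and -1.81 with all arrays, and every interval of the other 3 genes crosses 0.

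ANR1, the enzyme of the epicatechin branch, was at 14.14 ± 0.33 on the log2 scale in Archer and 13.51 ± 2.08 in Minsoy in 2007 (SD, n = 9 each). In 2008 it was at 14.40 ± 0.24 in Archer and 14.30 ± 0.46 in Minsoy. Averaged over years the difference was 0.36 (SE 0.27, 95% interval -0.17 to 0.90, adjusted p = 0.42). It was at 14.22 ± 0.52 in the high yield line and 14.22 ± 0.38 in the low yield line, a difference of -0.00 (95% interval -0.76 to 0.76, adjusted p = 0.998). Neither difference passed, and the intervals bound it to less than 1 log2 unit in either direction.

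ANS2, which makes the anthocyanidins that ANR1 reduces, was at 14.46 ± 0.19 in Archer and 14.16 ± 1.21 in Minsoy in 2007 (SD, n = 9 each). In 2008 it was at 14.47 ± 0.09 in Archer and 14.54 ± 0.20 in Minsoy. The difference over both years was 0.12 (SE 0.15, 95% interval -0.17 to 0.41, adjusted p = 0.655). Between the recombinant lines, at 13.84 ± 0.25 in the high yield line and 13.87 ± 0.25 in the low yield line, it was -0.04 (95% interval -0.45 to 0.38, adjusted p = 0.97). The intervals of ANS2 were narrower than those of ANR1.

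A single array set the values of ANR1 and ANS2 in the 5-6 mm seeds of 2007. ANR1 had 13.93, 13.52 and 13.85 in Archer, against 14.02, 8.09 and 13.12 in Minsoy. ANS2 had 14.45, 14.13 and 14.23 in Archer, against 14.54, 11.15 and 13.41 in Minsoy. The low value of both genes came from replicate 2 of Minsoy. Archer minus Minsoy there was 2.03 for ANR1 (limma adjusted p = 0.0501) and 1.24 for ANS2 (adjusted p = 0.029), and without this array 0.20 for ANR1 (adjusted p = 0.89) and 0.30 for ANS2 (adjusted p = 0.61). The ANS2 call was also lost without Archer replicate 1 (1.15, adjusted p = 0.15) or 3 (1.26, adjusted p = 0.071). ANR1, close to the threshold, was called in 7 of 14 alternatives and in 10 of the 54 fits that left out 1 array. In these 10 the difference was 3.17 without Minsoy replicate 1, 2.71 without replicate 3, and 2.03 without an array of another group.

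This array was not low in the whole pathway. Set against the mean of the other 5 arrays at that length, DFR2, a dihydroflavonol reductase upstream of both genes, deviated by -9.21, the lowest of all 26482 probe sets. ANR1 deviated by -5.60, at rank 28 from the lowest, and ANS2 by -3.01, at rank 213. MYB11, a gene named for a MYB transcription factor, deviated by -5.77, and 4CL4, a 4-coumarate CoA ligase, by -5.67. LAR1 deviated by 2.00 in the other direction and UGT78K1 by 0.81. The other 5 arrays include those of Archer, in which LAR1 was lower at every length. Within Minsoy, LAR1 was at 12.61 on this array and at 12.11 and 11.26 on the others of its group. Among the seed coat markers HPS deviated by 5.97, Ep by 1.34 and SCB1 by -1.09, and the mean of the 13 embryo markers, 15.02, was the highest of the 18 arrays of the set. Its stage score of 2.20 and line score of 0.07 matched its label. The part of seed coat and embryo content in these values was not tested.

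UGT78K1, the glucosyltransferase of the anthocyanin branch, did not pass the test between lines. Archer minus Minsoy was -0.39 (SE 0.31, 95% interval -1.02 to 0.25, adjusted p = 0.47). The high minus the low yield line was -0.74 (SE 0.44, 95% interval -1.64 to 0.15, adjusted p = 0.45), and -0.25 (95% interval -0.89 to 0.38) without the 4 arrays. The largest single deviation was the value of 9.17 in the low yield line at 2 mm, beside 5.17 and 4.40, from the array whose scores placed it with 5-6 mm seeds of the other line. With array weights or the stage score in the model the difference between the recombinant lines changed sign, to 0.13 and 0.22, and with the stage score Archer minus Minsoy was 0.089, none of them called.

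Seed length changed all 4 genes when the lines and years were averaged, in a comparison that 62.5% of probe sets passed, 25.5% as higher and 37% as lower in 5-6 mm seeds. UGT78K1 rose most of the 4, by 2.92 between 2 mm and 5-6 mm seeds (SE 0.31, limma adjusted p = 7.46e-10). Its signal at 2 mm was under the filter level of 5 on 6 of 6 arrays in the parents of 2007 and on 4 of 6 in the recombinant lines, so the size of its change is uncertain there. LAR1 rose by 1.31 (SE 0.20, adjusted p = 5.37e-07), or 2.48-fold. ANR1 fell by 0.94 (SE 0.27, adjusted p = 0.00235) and ANS2 fell by 0.46 (SE 0.15, adjusted p = 0.00659). All 13 embryo markers rose with them, with a median change of 7.42, while of the 3 seed coat markers HPS and Ep rose and SCB1 fell by 0.31, and of the 3 green tissue markers 1 rose and 2 fell. The summed embryo signal of the parents of 2007 ranged from 6.46 to 10.8 at 2 mm, from 12.1 to 17.8 at 3.5 mm and from 15.5 to 19.2 at 5-6 mm. Their part in the changes of the 4 genes was not tested.

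The genes moved at different steps. Between 2 mm and 3.5 mm, where 27.7% of probe sets passed, LAR1 rose by 0.83 (SE 0.20, limma adjusted p = 0.0018) and UGT78K1 by 1.96 (SE 0.31, adjusted p = 1.03e-05). ANR1, at -0.21 (adjusted p = 0.59), and ANS2, at 0.03 (adjusted p = 0.92), did not pass. Between 3.5 mm and 5-6 mm, where 55.2% passed, ANR1 changed by -0.73 (adjusted p = 0.019), ANS2 by -0.48 (adjusted p = 0.0057) and UGT78K1 by 0.95 (adjusted p = 0.010). LAR1 changed by 0.48 in this step (adjusted p = 0.038), a call that was lost with replicate number as a block (adjusted p = 0.0505) and without a filter on low values (adjusted p = 0.054), and that held in 38 of the 54 fits that left out 1 array. The lowest of those values was 0.31 (adjusted p = 0.080), without replicate 1 of the high yield line at 5-6 mm.

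UGT78K1 gave the clearest course along seed length. In the parents of 2007 it had log2 values of 3.83, 2.68 and 2.80 in Archer at 2 mm, against 3.69, 4.02 and 3.36 in Minsoy. At 3.5 mm it had 5.13, 5.16 and 6.42 in Archer, against 6.29, 6.23 and 6.71 in Minsoy. At 5-6 mm it had 6.78, 7.41 and 7.14 in Archer, against 6.82, 7.56 and 5.63 in Minsoy. All 6 arrays at 2 mm were below a level of 5, all later arrays were above it, and the parents overlapped at each length. The levels at 2 mm, 2.68 to 4.02, were not far above 1.96, the lowest value of the set.

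The 5-6 mm minus 2 mm change of UGT78K1 in the parents of 2008 was 1.44, or 2.23 without the 4 arrays, and it was not tested against that of 2007. The gene had 5.55, 5.30 and 5.48 in Archer at 2 mm, against 7.89, 5.32 and 5.21 in Minsoy. The 3.5 mm seeds had 6.99, 6.26 and 5.44 in Archer, against 7.48, 6.90 and 6.67 in Minsoy. The 5-6 mm seeds had 7.56, 7.19 and 7.17 in Archer, against 5.76, 7.75 and 7.96 in Minsoy. The highest Minsoy value at 2 mm, 7.89, and the lowest at 5-6 mm, 5.76, are those of the 2 arrays with stage scores against their labels.

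In the recombinant lines UGT78K1 had 4.82, 3.68 and 4.68 in the high yield line at 2 mm, against 9.17, 5.17 and 4.40 in the low yield line. The values at 3.5 mm were 7.59, 5.73 and 8.80 in the high yield line, against 7.57, 8.67 and 8.36 in the low yield line. The values at 5-6 mm were 9.35, 9.06 and 9.68 in the high yield line, against 8.65, 9.22 and 8.89 in the low yield line. The last length was the tightest, with all 6 arrays within 8.65 to 9.68, and the lines overlapped at each length. Apart from the 9.17 of the out-of-place array, all 2 mm values were lower than all values of 5-6 mm seeds.

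**Figure D3:**
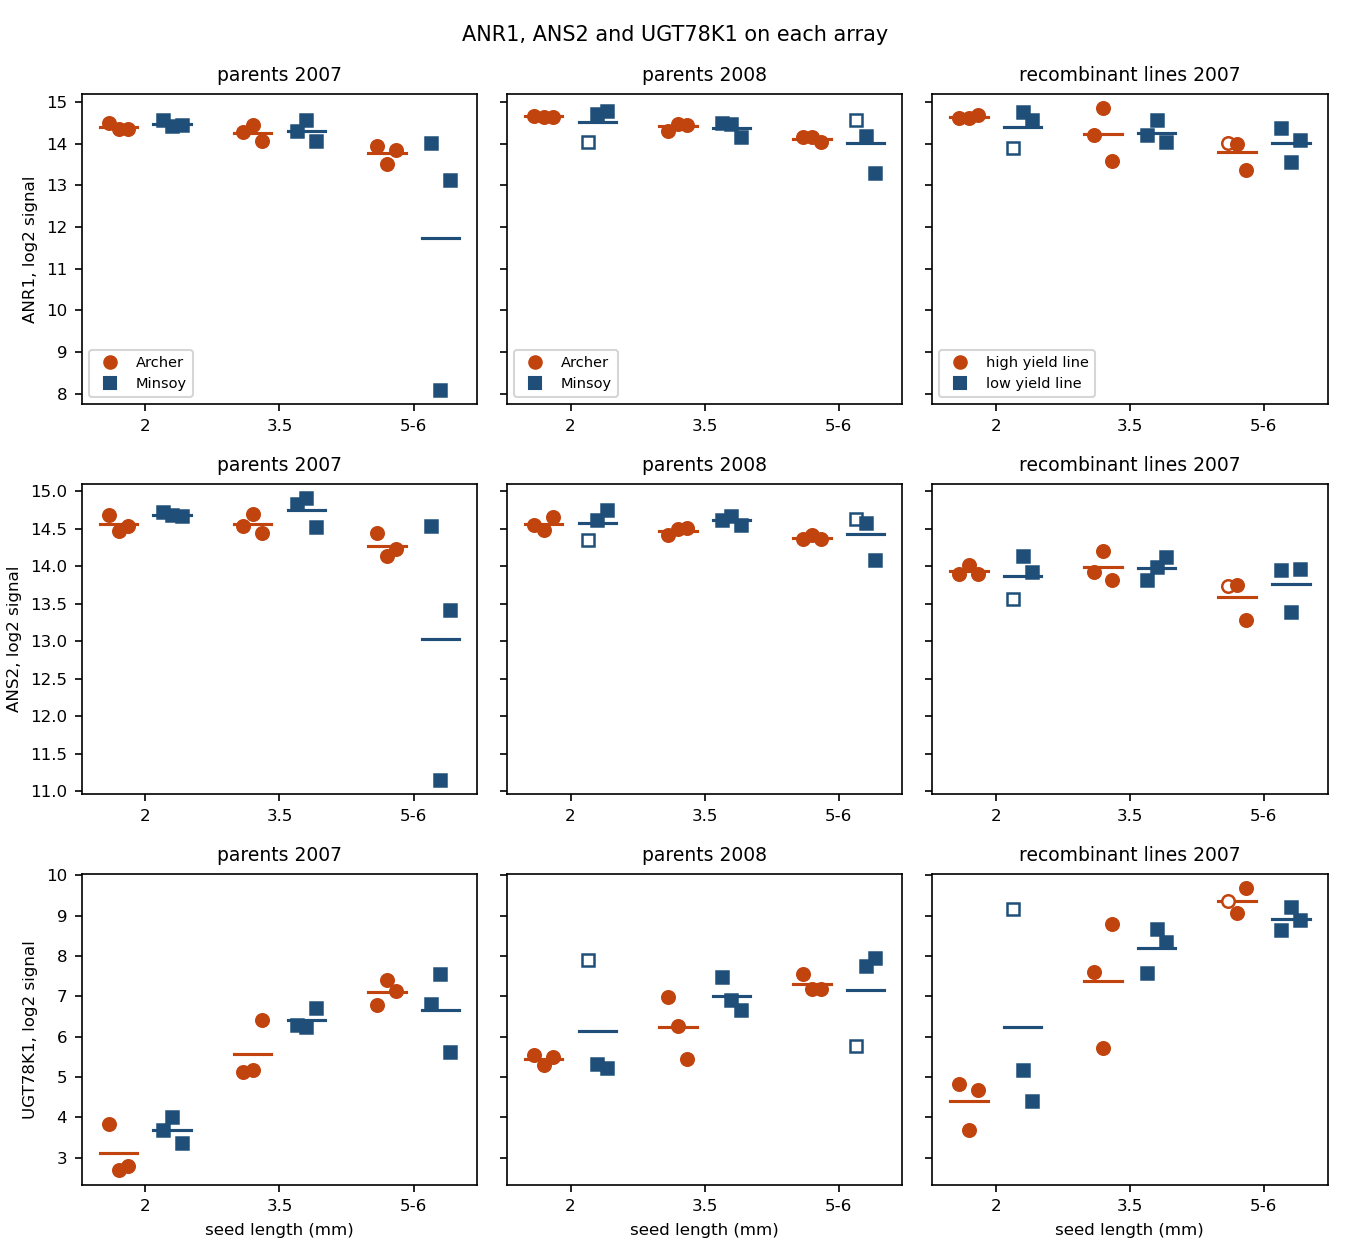
Log2 signals (y axes) of ANR1, ANS2 and UGT78K1 on each array by seed length in mm (x axis) in the 3 sets, with circles for Archer or the high yield line, squares for Minsoy or the low yield line, bars for group means of 3 arrays and open symbols for the 4 arrays whose scores went against their label. ANR1 and ANS2 stay high and drop to 8.09 and 11.15 on a single Minsoy array of 2007. The mean of UGT78K1 over both lines climbs with seed length in each set. With all arrays, its change from 2 mm to 5-6 mm did not pass the test in the parents of 2008.

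Within single sets, the size of the changes from 2 mm to 5-6 mm varied. In the parents of 2007, where 53.4% of probe sets passed, LAR1 changed by 1.49, ANR1 by -1.69, ANS2 by -0.97 and UGT78K1 by 3.49, and all 4 passed limma's test. In the parents of 2008, where 11.2% passed, the changes were 0.80, -0.52, -0.16 and 1.44 in the same order, and none passed (adjusted p of 0.12, 0.50, 0.72 and 0.074). In the recombinant lines, where 39.3% passed, LAR1 rose by 1.64 and UGT78K1 by 3.82, while ANR1 at -0.62 (adjusted p = 0.29) and ANS2 at -0.23 (adjusted p = 0.50) did not pass. The directions were the same in the 3 sets for each gene.

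Leaving out arrays moved several of these values. Without the 4 arrays, where 65.8% of probe sets passed over all sets, the change in the parents of 2008 (33.9% passed) was 1.26 for LAR1 and 2.23 for UGT78K1, both then called, and -0.77 for ANR1 and -0.27 for ANS2, neither called. In the recombinant lines (44.9% passed) LAR1 then rose by 0.92 and UGT78K1 by 4.56, both called. Without replicate 2 of Minsoy at 5-6 mm in 2007, the change over all sets was -0.64 for ANR1 (SE 0.11, adjusted p = 8.77e-06) and -0.30 for ANS2 (SE 0.08, adjusted p = 0.00103), both called. Without it and the 4 arrays, ANR1 changed by -0.77 in the parents of 2007, -0.77 in the parents of 2008 and -0.81 in the recombinant lines, each called, where 51.2%, 36% and 46.5% of probe sets passed. ANS2 changed by -0.50, -0.27 and -0.34 in the same sets, and the second was not called (adjusted p = 0.14).

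By line and year, LAR1 changed between 2 mm and 5-6 mm by 1.77 in Archer and 1.21 in Minsoy in 2007, by 0.83 in Archer and 0.77 in Minsoy in 2008, and by 1.75 in the high yield line and 1.53 in the low yield line. Those of Archer and Minsoy in 2007 and of the high yield line passed limma's test, in comparisons that 29.5%, 43.6% and 39% of probe sets passed. Those of Archer and Minsoy in 2008 and of the low yield line did not, where 10.7%, 0% (1435 at an unadjusted p under 0.05) and 0.306% passed. UGT78K1 changed by 4.003 in Archer and 2.98 in Minsoy in 2007, by 1.86 in Archer and 1.01 in Minsoy in 2008, and by 4.97 in the high yield line and 2.67 in the low yield line. It passed in the same 3 line and year combinations. Without the 4 arrays both genes passed in all 6 combinations, LAR1 with 1.77 in Archer and 1.21 in Minsoy in 2007, 0.83 in Archer and 1.69 in Minsoy in 2008, and 0.76 in the high yield line and 1.08 in the low yield line. The shares of probe sets that passed were then 33.2%, 45.8%, 18.7%, 19.7%, 37.6% and 19.5% in that order.

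Whether lines differed in their change with seed length was tested directly. For LAR1 the change in Archer minus that in Minsoy was 0.31 (SE 0.48, adjusted p = 0.85), and the change in the high yield line minus that in the low yield line 0.22 (SE 0.68, adjusted p = 0.91). Without the 4 arrays both changed sign, to -0.15 and -0.32. For UGT78K1 the second of these was 2.30 (SE 1.08, adjusted p = 0.31) and 0.85 without the 4 arrays. In these tests 0.0566% and 1.18% of all probe sets passed. Counting the test between years, 0 of the 12 differences of the 4 genes passed limma's test, and 1 had an unadjusted p under 0.05, that of UGT78K1 between the recombinant lines. A difference between lines in the change of LAR1 with seed length was therefore not shown, with 95% intervals of -0.67 to 1.29 and -1.16 to 1.61.

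**Figure D4:**
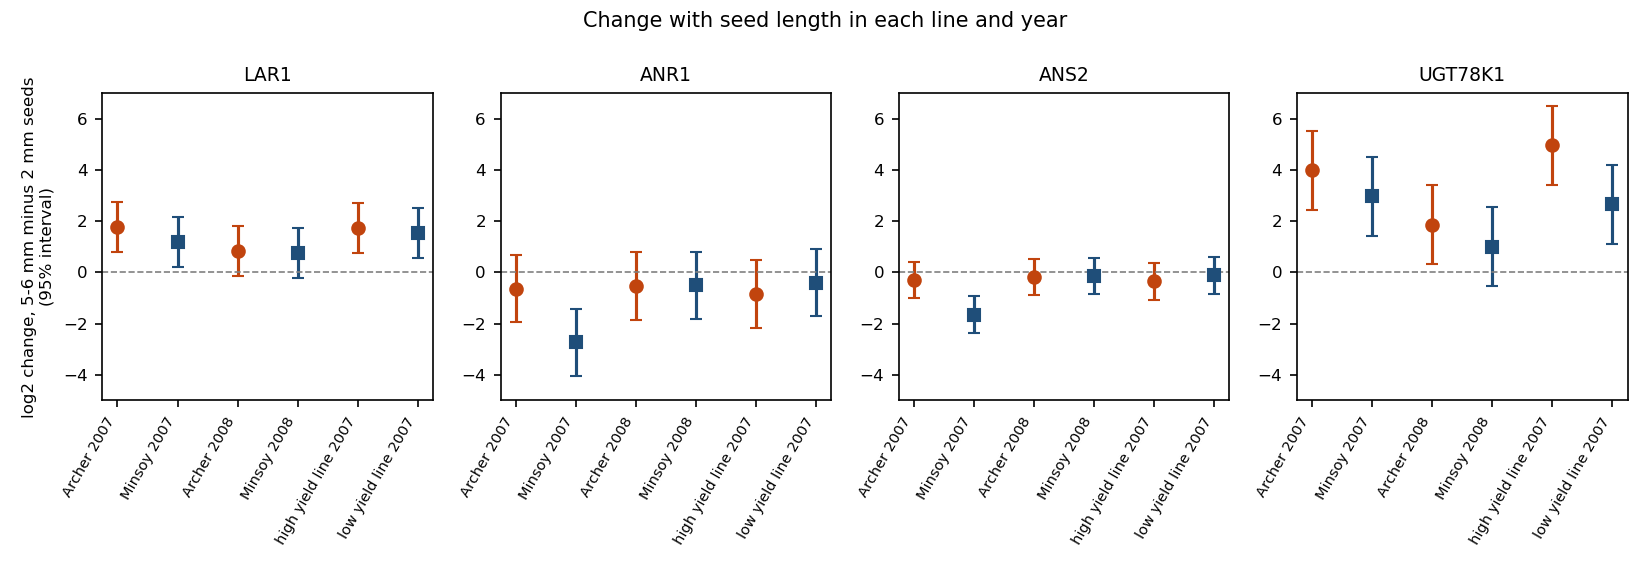
Log2 change from 2 mm to 5-6 mm seeds (y axis, 95% intervals, 3 arrays at each length) for each gene in each line and year (x axis). UGT78K1 has the highest values, between 1.01 in Minsoy of 2008 and 4.97 in the high yield line; ANR1 and ANS2 are lowest in Minsoy of 2007, at -2.74 and -1.66, the group that holds the single low array.

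Across the 54 arrays, each centred on its set, ANR1 and ANS2 were each other's most similar probe set of all 26482 (Pearson r = 0.96, Spearman rho = 0.86). Without replicate 2 of Minsoy at 5-6 mm in 2007, r was 0.83 over 53 arrays. LAR1 had r = -0.31 with ANR1, -0.19 with ANS2 and 0.50 with UGT78K1, and UGT78K1 had r = -0.47 with ANR1, or -0.71 without the same array. Without it, ANS2 stood at rank 253 among the probe sets most like ANR1. These correlations describe arrays that share stage, line and normalization, and carry no test.

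**Figure D5:**
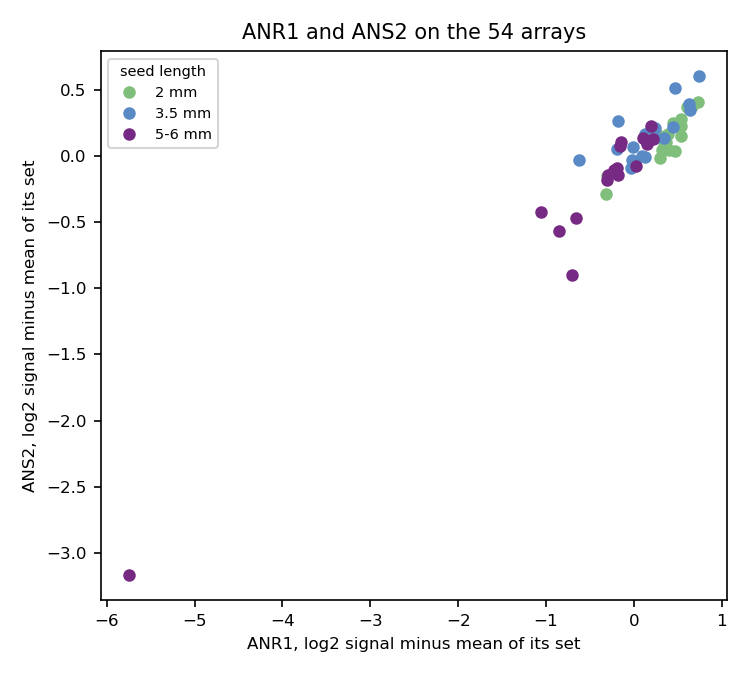
ANS2 (y axis) against ANR1 (x axis), each as log2 signal minus the mean of its set, on the 54 arrays, coloured by seed length. The point at the lower left is replicate 2 of Minsoy at 5-6 mm in 2007, and the other 53 arrays have r = 0.83.

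Genes most like each member over the same 54 arrays were listed by correlation, 1 probe set for each named gene. For LAR1 they were ERF3 (r = 0.87), PHANb (0.79), GASA14 (0.75), PRP2 (0.73) and HSF-35 (0.73). For ANR1 they were DFR2 (r = 0.94), GASA33 (0.92), F3H (0.91), MYB11 (0.91) and GSTU30 (0.89). Without the single low array none of these 5 was among the nearest to ANR1, which were then LOX7, VLXC, XTH1, HIDH and OAS-TL3 at r of 0.85 to 0.87. For ANS2 they were MYB11 (r = 0.93), F3H (0.93), 4CL4 (0.93), DFR2 (0.93) and PIP2-4 (0.87), of which PIP2-4 stayed without that array. For UGT78K1 they were SGR (r = 0.96), WRI1B (0.95), ACCC-2 (0.95), GSTF7 (0.95) and IF7MaT (0.94), a malonyltransferase of isoflavone glucosides.

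The rest of the pathway gives the setting for LAR1. Of 35 further flavonoid gene symbols looked for, 28 had a tested probe set. Between Archer and Minsoy 1 of these was higher, UGT708D1, a C-glucosyltransferase of flavonoids, at 4.27 (SE 0.48). The 3 lower ones were the chalcone reductase gene CHR4 at -0.66, the cinnamate 4-hydroxylase gene C4H at -0.40 and the 4-coumarate CoA ligase gene 4CL2 at -0.23. These are 3.57% higher and 10.7% lower, against 5.01% and 4.92% of all probe sets, with a median difference of -0.13 against 0.01. The difference of UGT708D1 was larger in size than the -2.69 of LAR1, and those of the 3 lower genes were smaller.

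Between the recombinant lines, 1 of the 28 was higher in the high yield line, again UGT708D1, at 4.69 (SE 0.68). The 2 lower ones were the isoflavone reductase gene IFR1 at -0.67 and the ligase gene 4CL at -0.50, against 3.31% and 2.05% of all probe sets, and the median difference was -0.05 against 0.01. F3H, DFR1 and DFR2, genes of steps before LAR1, did not pass in either line comparison, and neither did FLS1. Archer minus Minsoy was 0.06 for F3H, the flavanone 3-hydroxylase, 0.05 for DFR1 and 0.60 for DFR2 (adjusted p of 0.56, 0.79 and 0.39), and 0.08 for the flavonol synthase gene FLS1 (adjusted p = 0.88). The high minus the low yield line was -0.05, -0.12, -0.29 and 0.00 in the same order (adjusted p of 0.88, 0.80, 0.90 and 0.998). The F3H probe set with the highest mean is used here, and another one stands among those most like ANR1 and ANS2. The line differences of that other one are not given here.

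With seed length, 9 of the 28 rose and 9 fell from 2 mm to 5-6 mm, against 25.5% and 37% of all probe sets, with a median of -0.05 against -0.06. The largest rises were of the isoflavone synthase genes IFS2 (4.84) and IFS1 (4.83), the malonyltransferase gene IF7MaT (3.94) and the chalcone isomerase gene CHI1B1 (3.28). The largest falls were of the pterocarpan synthase like gene PTS-L5 (-1.43), the chalcone synthase genes CHS8 (-1.40) and CHS1 (-0.62) and the ligase gene 4CL3 (-0.70). In the steps nearest to the 4 members, FLS1 rose by 1.81, DFR1 fell by 0.31 and F3H fell by 0.12, and DFR2 was at -0.61 (adjusted p = 0.20).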

How the data were processed

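RNA of whole seeds was labelled with biotin and hybridised to 54 arrays, 3 in each of 18 groups. The deposited values are log2 signals made with GCRMA, per the submitters' processing notes. Its version and settings are not given in the sources used here. The lowest values differ between the sets, and nothing was renormalized. Groups came from the sample titles. Control probe sets were left out, and the others had to reach log2 5 on at least 3 arrays. A linear model with a mean for each group was fitted in limma 3.58.1 (R 4.3.3) to all 26482 remaining probe sets of all arrays, with moderated tests and Benjamini-Hochberg adjustment over all of them (threshold 0.05). It was also run on simulated data with independent normal noise on each array. These held no array against its label, no outlying array and no block effect, so that run does not cover them. Contrasts were taken within sets and then averaged. All adjusted p-values are from this model.

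The members and gene lists were chosen with earlier results of these data known. Named genes are the members, the 4 largest called changes each way in the flavonoid list, and the 5 named genes most correlated with each member. The other genes of the single low array, F3H, FLS1, DFR1, DFR2, and the 2 sets of omitted arrays were chosen after their values were seen. All 4 gene IDs carried the same symbol in RefSeq (Glycine_max_v4.0). For the stage score of an array, 200 rising and 200 falling probe sets were taken from sets it did not belong to. The line score rested on 100 probe sets found without that array. Per the labels, replicate numbers of 2008 are planting blocks. Residual correlations between lines, for arrays that shared a number, ran from -0.25 to 0.48 in that set, with 2 of 9 over 0.1. They ran from -0.47 to 0.55 in the parents of 2007 (6 of 9 over 0.1) and in the recombinant lines from -0.22 to 0.51 (5 of 9). Alternatives were other filters, quantile normalization, median centring, the replicate block, array weights, other variance settings, fewer arrays, single sets and a stage covariate.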

Additional observations from a re-analysis of the deposited data

How the results depend on the processing

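Most alternatives kept direction and side of the threshold. The differences of LAR1 between lines were called under all 16 alternatives for the parents and all 14 for the high and low yield lines. When 1 array was left out, LAR1 ranged from -2.76 to -2.60 for Archer minus Minsoy, from -2.14 to -1.63 for high minus low and from 1.14 to 1.40 for 5-6 mm minus 2 mm. In the same order, ANR1 ranged from 0.06 to 0.55, from -0.11 to 0.10 and from -1.13 to -0.64. ANS2 ranged from -0.04 to 0.25, from -0.10 to 0.015 and from -0.58 to -0.30, and UGT78K1 from -0.50 to -0.24, from -1.05 to -0.26 and from 2.76 to 3.16. In the parents of 2008 alone, the changes with seed length lost their calls. They were 0.80 for LAR1, -0.52 for ANR1, -0.16 for ANS2 and 1.44 for UGT78K1. In the recombinant lines alone, ANR1 (-0.62) and ANS2 (-0.23) lost theirs. In the parents of 2007, a set with as many arrays, these genes passed. Why the calls were lost was not tested.

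Signs turned only for differences that were not called. Archer minus Minsoy in ANS2 was -0.068 in 2008 alone and -0.039 without the 4 arrays and the low Minsoy array. High minus low in UGT78K1 was 0.13 with array weights, whose fit stopped before its tolerance, and 0.22 with the stage score as a covariate. That covariate gave 0.089 for Archer minus Minsoy in UGT78K1. For the line difference in the change with seed length it gave -0.079 for LAR1 and -0.53 for UGT78K1 in the recombinant lines. Without the 3 arrays out of place in stage, or the 4, the LAR1 change differed by -0.15 between Archer and Minsoy, and without the 4 by -0.32 between the recombinant lines. With all arrays but 1, this difference between the recombinant lines ranged from -0.77 to 0.76. The cause was not tested. ANR1 and ANS2 between the recombinant lines, without the 4 arrays and the low one, were -0.13 and -0.11.

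With replicate number as a block, 9.58% of probe sets were called between the parents, 5.01% between the high and low yield lines and 62.1% for 5-6 mm against 2 mm. Of the results given, only the LAR1 step from 3.5 mm to 5-6 mm lost its call (0.48, adjusted p = 0.0505). Counting all 55 probe sets of the flavonoid list, 8, 5 and 39 were called, against 4, 3 and 18 with 1 for each gene, and 5 between the recombinant lines without the 4 arrays. The number of arrays, and low signals of UGT78K1 at 2 mm, limit the precision.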
